A study of Mus musculus with 2 samples.

Results

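Hubs are here windows of 50 kb in which the promoter contacts of both parental alleles added up to 10000 or more interactions. They were selected on that summed count alone, which took in 583 of 43941 windows, 1.33% of those on chromosomes 1 to 19, and they held 7251113 of 88312953 interactions, or 8.21%. Contacts were measured by Promoter Capture Hi-C in F121-6, a single female hybrid mouse embryonic stem (ES) cell line that carries a 129 and a Mus castaneus (Cas) chromosome set. The cells were fixed in 2% formaldehyde after growth on mouse fibroblast feeders treated with mitomycin C, in medium with serum and LIF, and no treatment group or second line was compared. The 2 samples are replicates of that single group, and their titles also carry the abbreviation mef. Each allele has 1 value pooled over the samples. Replicate spread is therefore unknown, and the intervals and tests given cover counting error, or differences among windows, and nothing else. Counts carry no molecular identifiers, and the same contact could enter the table at each end.

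The interaction counts that chose the windows are a description and carry no test. The table names no partner of any interaction, so a hub is a window with a high count, and whether that count came from many partners or few was not measured. The 129 allele took 57.57% of all interactions, and the median window had a summed count of 974.

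Promoter Capture Hi-C ligates DNA ends that lie close together in the fixed nucleus and then pulls out, with RNA baits, the products that hold a promoter fragment cut by HindIII. The bait set targeted 22225 promoters. A window with several baited promoters can therefore collect more counts than a window with a single one, whatever the folding of its chromatin, and the part of bait number in the counts was not tested. Contact frequency also falls steeply with distance along the chromosome, which makes short contacts the bulk of a promoter's count.

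Promoters in hubs of high count differed in their number of CG dinucleotides, and 5 are shown to make that visible. All but that of Ifrd1 come from windows with several coding starts, whose other promoters are not shown. The 5 promoters come from RefSeq on GRCm38.p6, cover 250 bases before to 50 after the annotated gene start, and were chosen after the values were seen. Capitals mark CG dinucleotides, whose density separates promoters in CpG islands, often those of broadly active genes, from CpG-poor promoters, often those of tissue-specific genes.
Krtap3-1, from the window of highest count (chr11:99566581-99566880, minus strand): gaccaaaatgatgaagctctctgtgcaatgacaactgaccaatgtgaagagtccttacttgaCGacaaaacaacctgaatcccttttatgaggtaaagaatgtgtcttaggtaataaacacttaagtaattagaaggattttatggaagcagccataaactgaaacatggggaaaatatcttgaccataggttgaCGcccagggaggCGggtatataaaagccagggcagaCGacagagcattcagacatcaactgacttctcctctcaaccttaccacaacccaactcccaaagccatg
Cxcl10, from the window of the next highest count (chr5:92348840-92349139, minus strand): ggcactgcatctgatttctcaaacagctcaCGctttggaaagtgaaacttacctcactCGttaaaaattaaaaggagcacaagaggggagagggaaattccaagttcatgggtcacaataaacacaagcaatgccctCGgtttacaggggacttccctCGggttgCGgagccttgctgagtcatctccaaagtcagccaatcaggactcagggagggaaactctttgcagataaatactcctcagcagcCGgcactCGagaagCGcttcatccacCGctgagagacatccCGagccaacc
Ifrd1, from the hub of highest count with a single coding start (chr12:40223140-40223439, minus strand): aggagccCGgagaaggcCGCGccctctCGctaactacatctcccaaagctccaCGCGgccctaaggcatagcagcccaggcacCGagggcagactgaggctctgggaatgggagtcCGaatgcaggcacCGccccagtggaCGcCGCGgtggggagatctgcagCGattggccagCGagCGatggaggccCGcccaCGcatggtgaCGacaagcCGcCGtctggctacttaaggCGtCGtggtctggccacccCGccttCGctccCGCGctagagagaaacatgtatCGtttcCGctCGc
Olfr549, from the highest olfactory receptor hub (chr7:102554036-102554335, plus strand): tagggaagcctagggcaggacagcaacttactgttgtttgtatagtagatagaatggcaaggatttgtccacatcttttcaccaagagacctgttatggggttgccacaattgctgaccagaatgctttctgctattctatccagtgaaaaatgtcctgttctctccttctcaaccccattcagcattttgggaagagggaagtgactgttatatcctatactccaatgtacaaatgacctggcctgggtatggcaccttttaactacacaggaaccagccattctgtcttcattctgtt
Taar5, from the hub with the largest 129 share among those of 20000 or more (chr10:23970456-23970755, plus strand): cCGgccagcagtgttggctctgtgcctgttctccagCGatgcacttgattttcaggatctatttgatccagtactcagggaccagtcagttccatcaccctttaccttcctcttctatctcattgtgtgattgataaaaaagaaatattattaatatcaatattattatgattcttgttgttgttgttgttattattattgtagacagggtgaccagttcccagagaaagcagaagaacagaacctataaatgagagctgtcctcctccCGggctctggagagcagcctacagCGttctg

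The Ifrd1 promoter held 29 CG dinucleotides, with an observed over expected CG ratio of 0.90. The Cxcl10 promoter held 10 (ratio 0.53), the Krtap3-1 and Taar5 promoters 4 each (0.29), and the Olfr549 promoter 0. Krtap3-1 alone among them had the letters TATAAA, read on the coding strand within the 50 bases before the start; in Taar5 the same letters cross the annotated start. None of the 5 contained the HindIII site AAGCTT within the stretch shown.

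The highest summed count was in a window of keratin-associated protein genes on chromosome 11 (99550001 to 99600000), with 19300 interactions from the 129 allele and 16044 from Cas, 36.3 times the median window. It holds the starts of Krtap1-3, Krtap1-4, Krtap1-5, Krtap3-1, Krtap3-2, Krtap3-3 and Krtap9-3, whose proteins form the matrix between keratin filaments of hair. The next window along (99600001 to 99650000), with Krtap2-4, Krtap4-1, Krtap4-2 and Krtap4-7 among its genes, had 13429 and 10852. Between them in rank came the chromosome 5 window from 92300001 to 92350000, where 16523 interactions were assigned to 129 and 12990 to Cas. It holds Cxcl9 and Cxcl10, chemokines induced by interferon, and Art3 and Sdad1. Its neighbours had summed counts of 6443 and 8088, so this hub stood out alone while the keratin-associated hub lay among others.

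Ifrd1, which encodes a transcriptional co-regulator, was the only coding gene placed in the fourth window, on chromosome 12 (40200001 to 40250000), where 129 had 12995 and Cas 9542. The fifth was an olfactory receptor window on chromosome 7 (102550001 to 102600000) with Olfr549, Olfr550, Olfr551 and Trim21, at 13025 and 9118. A window of the phosphate transporter family genes Slc17a2 and Slc17a3 on chromosome 13 (23800001 to 23850000) had 12438 and 9620. High counts thus came both from windows with many small genes and from windows with a single coding start.

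Chromosomes 12, 7 and 13 supplied the rest of the 12 highest hubs. On chromosome 12, a window over Rtl1 and the noncoding gene Rian (109600001 to 109650000) had counts of 13027 for 129 and 8399 for Cas, and the window of the microRNA host gene Mirg (109700001 to 109750000) had 12719 and 8091. On chromosome 7, the windows of Olfr555, Olfr556, Olfr557 and Trim68 (102650001 to 102700000), of Olfr33, Olfr558 and Olfr559 (102700001 to 102750000) and of Olfr631, Olfr632, Olfr633 and Olfr65 (103900001 to 103950000) had summed counts of 21275, 20661 and 20411. On chromosome 13, the window of Scgn (23950001 to 24000000), which encodes the calcium-binding protein secretagogin, had 11878 and 8656. Of these 12 windows, 4 belong to the class I olfactory receptor region of chromosome 7 and 2 to the imprinted microRNA region of chromosome 12.

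Most hubs lay near the threshold. The hub medians were 6703 for 129 and 5020 for Cas, and the quartiles of the summed count were 10722 and 13228. Only 70 hubs reached 15000 and 14 reached 20000. Just inside the threshold were windows of Ranbp6 on chromosome 19 (10001), Cdhr3 on chromosome 12 (10003), Ikzf1 on chromosome 11 (10005) and of Fbxo7 and Syn3 on chromosome 10 (10009). Just outside were windows of Lrrc31 on chromosome 3 (9998), of Sarm1, Slc46a1 and Vtn on chromosome 11 (9991), of Kif13a on chromosome 13 (9990), and a window of chromosome 5 without an annotated coding gene (9989). Membership close to the threshold rests on a few interactions.

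**Figure D1:**
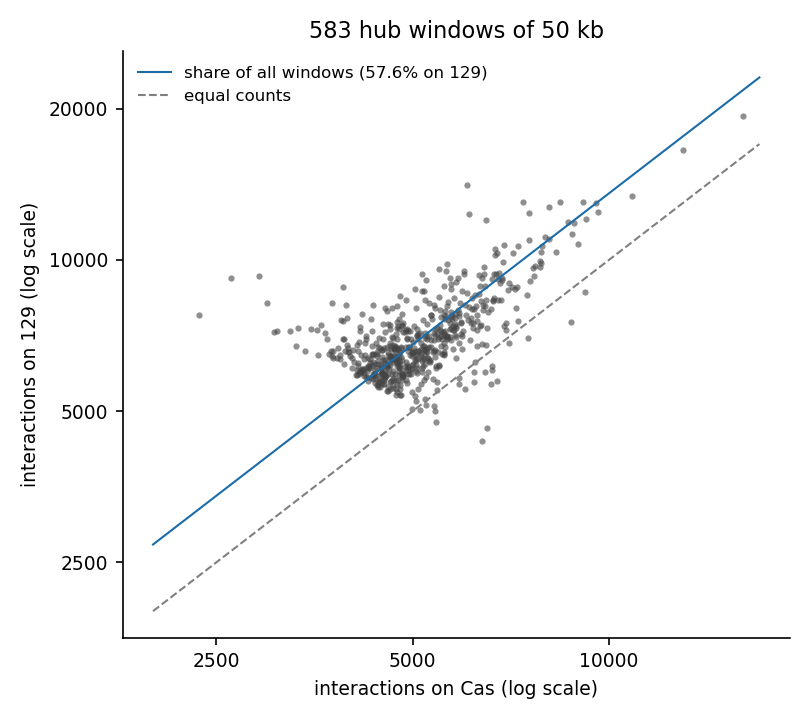
Interactions on the 129 allele (vertical axis) against the Cas allele (horizontal axis), both on log scales, in each of the 583 hubs (points); the solid line marks the 57.57% share on 129 of all windows and the dashed line equal counts. Of the hubs, 562 lie above the dashed line, as does the solid line, and 21 lie below it. The window of highest count is at 19300 and 16044.

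The hubs were next set against the annotated genes, which the rule did not use. A protein-coding gene start could be placed in 87.0% of hubs, whereas 73.6% of all windows with 10 or more interactions had none. Hubs held 2.02 coding starts on average against 0.39 over all those windows, and 4 or more in 13.9% of hubs against 0.96%. Placing a gene by any overlap of its body left 3.77% of hubs without a coding gene, against 42.2% of all windows. The more starts a window had, the more often it was a hub: 0.235% of windows without a coding start were hubs, 2.06% of those with 1, 6.60% with 2, 13.2% with 3, 15.2% with 4 and 25.6% with 5 or more. The part of bait number in this order was not tested. Among the hubs the number of coding starts followed the count only loosely (Spearman rho 0.24 over 583 hubs from the same libraries).

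The starts of 1180 of 16467 protein-coding genes, or 7.17%, lay in hubs, and the gene lists departed from that figure in both directions. The Hox genes, which encode the homeodomain factors that pattern the body axis, had 21 of 37 members in 5 hubs, with a median summed count of 11866 per gene against 4450 over all coding genes. Keratins and keratin-associated proteins had 49 of 98 in hubs (median 10146), replication-dependent histones 7 of 38 (5869), among them H1f1, H2ac4 and H3c1 in a shared window of 12289, and olfactory receptors 117 of 823 (4497). The keratin list took names of the form Krt or Krtap with numbers only, and so left out Krt33a, Krt33b and Krtap19-9b, which also start in hubs. Genes of a list share windows, so these are not independent counts.

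Of the placed genes of the Hoxd cluster, 8 of 9 started in a hub. The window of Hoxd9 to Hoxd13 and Evx2 on chromosome 2 (74650001 to 74700000) had counts of 9716 for 129 and 7688 for Cas, and that of Hoxd3, Hoxd4 and Hoxd8 (74700001 to 74750000) had 8843 and 7092. On chromosome 6, the window of Hoxa3, Hoxa5, Hoxa6, Hoxa7 and Hoxa9 (52200001 to 52250000) had 7060 and 5951. Hoxb7, Hoxb8 and Hoxb9 on chromosome 11 (96250001 to 96300000) had 6969 and 4897. No Hoxc gene was in a hub. Hox clusters are known as targets of Polycomb repression in ES cells.

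No hub held the start of any of the 24 placed genes of the core and naive pluripotency list: the highest, Esrrb, an orphan nuclear receptor of the pluripotency network, had a summed count of 8747, and Pou5f1, which encodes Oct4, had 6046. The list's median was 4011, below that of all coding genes. With 7.17% of all coding genes in hubs, 0 of 24 is near that share. Ribosomal proteins had 7 of 73 in hubs, or 9.59%, including Rpl37 (19080), Rps29 (12011) and Rps27l (11325), with a median of 5122. Proteasome subunits had 4 of 34, or 11.8%, with a median of 5819, namely Psmc5 (12148), Psmb5 and the thymus-specific Psmb11 in the same window (11551) and Psmb6 (10877). Splicing factors had 2 of 46, Sf3a3 (20048) and Snrpb2 (14635), and the MCM and ORC list 1 of 19, Gins4 (10235), a subunit of the GINS complex of the replicative helicase.

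The list of developmental regulators outside the Hox clusters had 4 of 69 genes in hubs, which were Evx2 beside Hoxd13, Tbx20 (10757), and Dlx5 and Dlx6 in the same window (10433). Imprinted genes had 2 of 31, or 6.45%, beside 7.17% of all coding genes. They were H13 and Mcts2, which share a window on chromosome 2 (152650001 to 152700000) with counts of 6031 for 129 and 6627 for Cas. Not among them are Rtl1, Rian and Mirg of the imprinted region of chromosome 12, whose bodies overlap hubs. Numbered zinc finger genes had 9 of 299, led by Zfp691 (15205), Zfp286 (13553) and Zfp597 (12032). Clustered protocadherins had 2 of 23 placed members in a hub, Pcdhb1 and Pcdhb2 (12003), with 57 genes annotated. No member was in a hub among 213 vomeronasal receptor genes, whose median was 627, among 27 H2 histocompatibility genes (2685), or among 9 fibroblast markers (5025), of which Col1a2 was highest at 8943. For the H2 and fibroblast lists, with 27 and 9 genes, 0 is near the share of all coding genes.

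Gene families, grouped by the stem of their names, were counted after the values were seen, and 29 had 5 or more members in hubs. Large families were near the figure for all genes, such as Slc with 22 of 283 and Tmem with 15 of 194, and 9 of the 29 had under 10% of their members in hubs. The families described next were picked for high shares. The Wfdc genes, which encode small secreted proteins of the whey acidic protein type, had 13 of 17 placed members in 5 hubs. The Taar genes for trace amine receptors had 11 of 15 in 3 hubs, the Lce genes of the late cornified envelope 9 of 21 in 3, and the Sprr genes, also of the cornified envelope of the epidermis, 6 of 11 in 2. The secreted ribonuclease family had 5 of 8 and the lipocalin family Lcn 5 of 10. Globin loci were also present: the Hbb genes of chromosome 7 lay in hubs of 14422 and 11809 interactions and the Hba genes of chromosome 11 in a hub of 11987. Members of these families resemble each other in sequence, and how reads matching several copies were counted is not given in the sources.

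**Figure D2:**
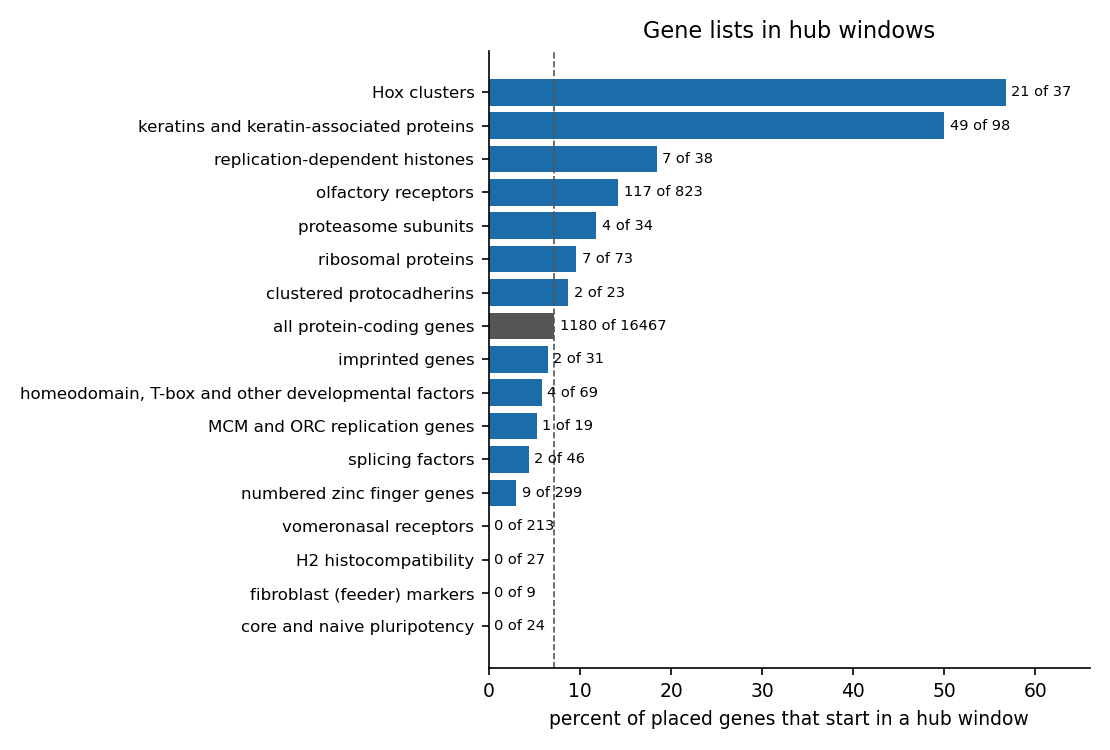
Percentage of the placed genes of each list whose start lies in a hub (bars, with the counts beside them); the dark bar and dashed line give all protein-coding genes, 1180 of 16467. Hox clusters (21 of 37) and keratins (49 of 98) stand highest, and the vomeronasal, histocompatibility, fibroblast and pluripotency lists, of 213, 27, 9 and 24 genes, are at 0.

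Promoter sequence gave another feature that the rule did not use. RefSeq promoter sequences were at hand for 1168 starts of 1016 coding genes in hubs and for 17794 starts of 14572 genes in all windows. An observed over expected CG ratio below 0.5, the CpG-poor kind seen at Krtap3-1, Olfr549 and Taar5, was found in 55.5% of hub promoters against 42.7% of all. The median promoter held 8 CG dinucleotides in hubs and 14 overall. The letters TATAAA on the coding strand within 50 bases before the start, as at Krtap3-1, were in 7.79% of hub promoters against 3.30% of all, and TATAAA anywhere on either strand in 16.2% against 12.02%. Leaving out olfactory receptor, keratin and keratin-associated genes, a choice made after the values were seen, gave 49.4% of hub promoters against 40.1% of all for the CpG-poor kind, and 5.70% against 3.04% for TATAAA before the start. The site AAGCTT, which reads the same on both strands and is cut by HindIII, occurred in 8.30% of hub promoters and 6.45% of all. These are matches of letters in stretches of 300 bases, and members of a family are not independent.

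In windows with a single placed promoter, CpG-poor promoters did not have the higher counts. The median summed count was 2798 for 2932 windows with a CpG-poor promoter and 3526.5 for the other 3728. Hubs made up 2.46% and 2.04% of them.

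No coding start was placed in 76 hubs, in part because the reference lacked their promoters, as given after the sequences. In 22 of the 76 there was no coding gene body either, and in 6 no annotated gene of any kind.

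The microRNA host gene Mirg gives the clearest case, a window with 39 microRNA genes and no coding gene. MicroRNAs are short RNAs that repress messenger RNAs by pairing through a seed at bases 2 to 8, and the window's 73 mature sequences had 66 different seeds. The sequences below, from RefSeq on GRCm38.p6, were chosen to show seeds (capitals) that neighbours in the window share.
mmu-miR-379-3p (chr12:109709102-109709123, plus strand): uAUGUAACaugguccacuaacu
mmu-miR-411-3p (chr12:109710225-109710246, plus strand): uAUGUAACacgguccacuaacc
mmu-miR-376b-5p (chr12:109723471-109723492, plus strand): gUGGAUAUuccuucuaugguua
mmu-miR-376c-5p (chr12:109722733-109722754, plus strand): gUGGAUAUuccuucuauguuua

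The hub of highest count over a coding gene body, but without a placed start or a microRNA gene, was the window of Jcad, a gene of endothelial cell junctions, on chromosome 18 (4600001 to 4650000; 10314 for 129 and 7119 for Cas). No promoter entry of that chromosome was used, so the start of Jcad is unplaced rather than absent. Of the 76 hubs, 6 lay on chromosome 18 and 4 on chromosome 15, where starts could be placed for only 41.1% and 78.4% of annotated coding genes, against 86.3 to 94.7% on the other chromosomes. Without chromosomes 15 and 18, 88.0% of hubs had a placed start. Other hubs without a coding gene also sat at microRNA genes. The window of Lincmd1, Mir206 and Mir133b on chromosome 1 (20650001 to 20700000), a locus of muscle differentiation, had counts of 8987 for 129 and 7023 for Cas. The window of Mir124a-2, a microRNA of neurons, on chromosome 3 (17750001 to 17800000) had 7024 and 5819. That of Mir100 and Mirlet7a-2 on chromosome 9 (41500001 to 41550000) had 5809 and 5881, and that of Mir1a-1 and Mir133a-2 on chromosome 2 (180350001 to 180400000) had 5868 and 4830. A microRNA gene lay in 47 hubs, 8.06%, against 1.86% of all windows tested. The share was nearly the same just below the threshold, with 95 of 1200 windows, 7.92%, from 7500 to under 10000 interactions. Without any annotated gene, a window on chromosome 19 (14700001 to 14750000) had 6381 and 5256 beside neighbours with summed counts of 952 and 1359.

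Position along the chromosome was examined next. Most hubs stood alone: 460 of 583 had no adjoining hub, and the other 123 formed 46 runs of 2 to 11 windows. A further hub lay within 250 kb of 44.3% of hubs and within 1 Mb of 64.5%, and successive hubs on a chromosome were a median of 1325 kb apart. Compared with the mean of its neighbours, the median hub had 2.54 times the count (quartiles 1.74 and 4.24), and 516 hubs exceeded both neighbours. These are descriptions, since choosing windows by a high count favours both values. The 460 hubs that stood alone exceed their neighbours by the rule itself.

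The counts around the 460 hubs that stood alone are a description, since the choice of these windows sets the hub at 10000 or more and each neighbour below it. The median summed count was 11522 in the hub, 3594 and 3568 in the windows on either side, 3264 and 3233 at 100 kb and 1776 and 1832 at 500 kb. The number of coding starts fell likewise, from 1.83 in the hub to 1.02 and 1.01 beside it and 0.66 and 0.68 at 500 kb. At 500 kb, a distance the choice did not fix, the medians were above the 974 of all windows.

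**Figure D3:**
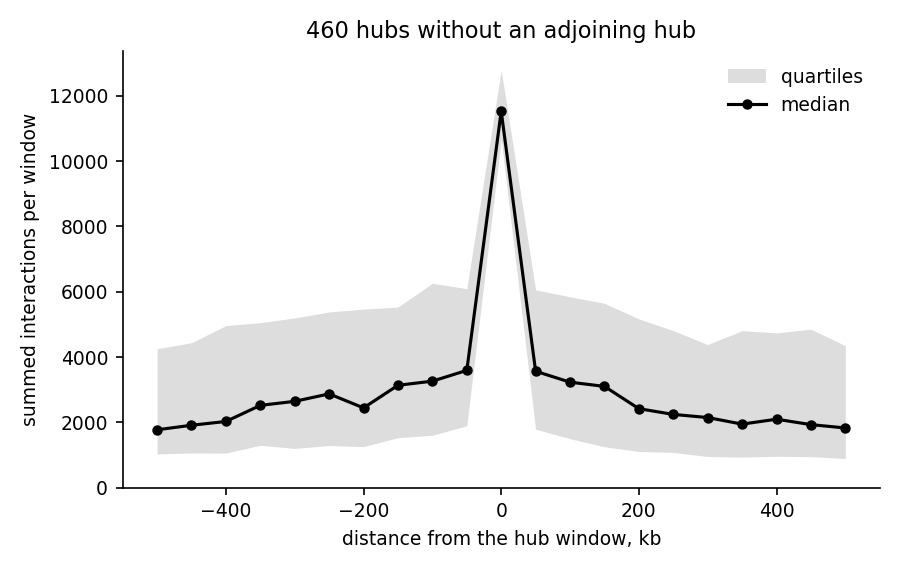
Summed interactions per window (vertical axis) by distance from the hub in kb (horizontal axis), for the 460 hubs without an adjoining hub; points give medians and the band the quartiles. The median falls from 11522 in the hub to 3594 and 3568 in the adjoining windows and to 1776 and 1832 at 500 kb.

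The sharpest hub was that of Fhit, a gene of a nucleotide hydrolase at a common fragile site, on chromosome 14 (10450001 to 10500000). Its counts were 6262 for 129 and 6232 for Cas, 18.5 times the mean of its neighbours. The window of Inhba, which encodes the activin A subunit, on chromosome 13 (16000001 to 16050000) had 8093 and 6261, 17.2 times its neighbours. Atp6v1g3, a subunit gene of the vacuolar proton pump, on chromosome 1 (138250001 to 138300000) had 6020 and 4522, 14.7 times its neighbours. The windows over Celf4 and Jcad on chromosome 18 came between Inhba and Atp6v1g3 in this order, at 16.2 and 16.0 times their neighbours. The neighbours of these 5 hubs had summed counts of 312 to 1525.

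Most of the longest runs covered gene families. A run of 11 hubs on chromosome 11 (99250001 to 99800000) spans keratin genes from Krt24 to Krt40 and the Krtap genes after them, with 106861 counts for 129 and 86408 for Cas. A run of 8 on chromosome 7 (103800001 to 104200000) starts at the Hbb genes and runs through olfactory receptors to Olfr649, with 72146 and 47405. A run of 6 on the same chromosome (102500001 to 102800000), from Olfr547 to Olfr561, had 59493 and 44819. Runs of 4 lay at the microRNA region of chromosome 12 (109550001 to 109750000; 38379 and 25482), and at Cldn8 and keratin-associated genes of chromosome 16 (88550001 to 88750000; 29880 and 22100). The last run of 4, on chromosome 14 (55500001 to 55700000; 26136 and 20547), holds 18 coding starts of mixed kinds, among them those of Psme1, Psme2, Irf9, Nedd8 and Tinf2.

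Hubs were spread unevenly over chromosomes. They made up 2.81% of windows on chromosome 11, 2.59% on chromosome 7, 2.23% on chromosome 2 and 2.16% on chromosome 19, against 1.33% over all. Chromosome 17 had the smallest share, with 5 hubs in 1598 windows, or 0.313%. Per 1000 annotated coding genes there were 4.72 hubs on chromosome 17 and between 16.3 and 41.7 on the other 18 chromosomes. The median summed count of windows with a coding start was 2931.5 on chromosome 17 and between 3409.5 and 4678.5 elsewhere. The cause of this difference was not tested.

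Interaction distances, which the rule did not use, were short in hubs. Hub medians were 55 kb for 129 (quartiles 35 and 86.5) and 56 kb for Cas (36 and 90.8), while the medians over the 43555 windows where each allele had at least 10 interactions were 348 and 347.5 kb. Distances were below 50 kb on both alleles in 37.9% of hubs against 5.33% of all these windows, and above 100 kb on both in 15.3% against 76.8%. Whether a window's distance is a mean or a median is not stated in the sources. Each allele has a single pooled distance per window, so no test was possible.

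Among windows with equal numbers of coding starts, the gap from other windows was smaller wherever at least 1 start was placed. Without a placed start it was wider. Medians there were 57.5 kb for 129 and 53.25 kb for Cas in 76 hubs, against 599.5 and 591 kb in 32241 other windows. With 1 start, the medians were 56 kb for 129 and 55.5 kb for Cas in 166 hubs, against 129 and 132 kb in 7874 other windows. With 3 starts they were 52.5 and 58.5 kb in 102 hubs against 82.8 and 86 kb in 668 others, and with 4 starts 55 and 59 kb in 39 hubs against 70 and 73 kb in 218 others. Below the hub threshold, medians were 77.8 kb for 129 and 81.5 kb for Cas from 5000 to under 7500 interactions, and 64 and 66 kb from 7500 to under 10000. Within the hubs themselves the relation was weak, with a Spearman rho of -0.16 between count and distance over 583 windows, which share libraries and depth. At 15000 or more interactions the medians were 40 kb on both alleles, but the 14 hubs of 20000 or more had 55.5 and 54 kb, so the fall did not continue to the highest counts.

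The shortest distances were at Kansl2 on chromosome 15 (98500001 to 98550000; 9 kb for 129 and 6 kb for Cas) and at Il1b, the interleukin 1 beta gene, on chromosome 2 (129350001 to 129400000; 9 and 8 kb). Windows of Pomgnt1 and Tspan1 on chromosome 4 (116150001 to 116200000; 10 and 9 kb), of Vcp, Fancg, Pigo and Stoml2 on chromosome 4 (43000001 to 43050000; 12 and 9 kb) and of Tmprss13 on chromosome 9 (45300001 to 45350000; 10 and 11 kb) followed. These values lie below the window length of 50 kb. The longest were at Tarsl2 on chromosome 7 (65600001 to 65650000; 305 and 316 kb) and at Cldn18, a claudin gene of lung and stomach, on chromosome 9 (99700001 to 99750000; 290 and 283 kb). The mast cell protease genes Mcpt1, Mcpt2 and Mcpt9 on chromosome 14 (56000001 to 56050000) had 249 and 282 kb. A window of chromosome 10 without a coding gene (96150001 to 96200000) had 235 and 285.5 kb, and Ttc12 on chromosome 9 (49450001 to 49500000) had 251 and 233 kb. Even these are shorter than the median of all windows.

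Both alleles gave similar distances in most hubs. On the log2 scale, the 129 over Cas distance ratio had a median of 0 (quartiles -0.27 and 0.18), with 263 hubs longer on 129, 290 longer on Cas and 30 equal. A difference of 2-fold or more was seen in 17.1% of all windows, whose counts are lower, and in 4.33% from 7500 to under 10000 interactions. In hubs it was seen in 17, or 2.92%. The largest were longer on Cas: at Olfr651 to Olfr655 on chromosome 7 (104550001 to 104600000) 129 had 55 kb and Cas 206.5 kb, and at Net1, Tubal3 and Ucn3 on chromosome 13 (3900001 to 3950000) they were 25 and 84 kb. The window of Ranbp6 on chromosome 19 (29800001 to 29850000) had 36 and 111 kb and that of the Hba genes on chromosome 11 (32250001 to 32300000) 76 and 195 kb. In the other direction, a window of chromosome 7 without a coding gene (131450001 to 131500000) had 160 and 66 kb, that of Celf4 on chromosome 18 (25750001 to 25800000) 79 and 33 kb, that of Tmem144 on chromosome 3 (79800001 to 79850000) 33 and 16 kb, and that of Fstl5 on chromosome 3 (76050001 to 76100000) 22 and 11 kb.

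**Figure D4:**
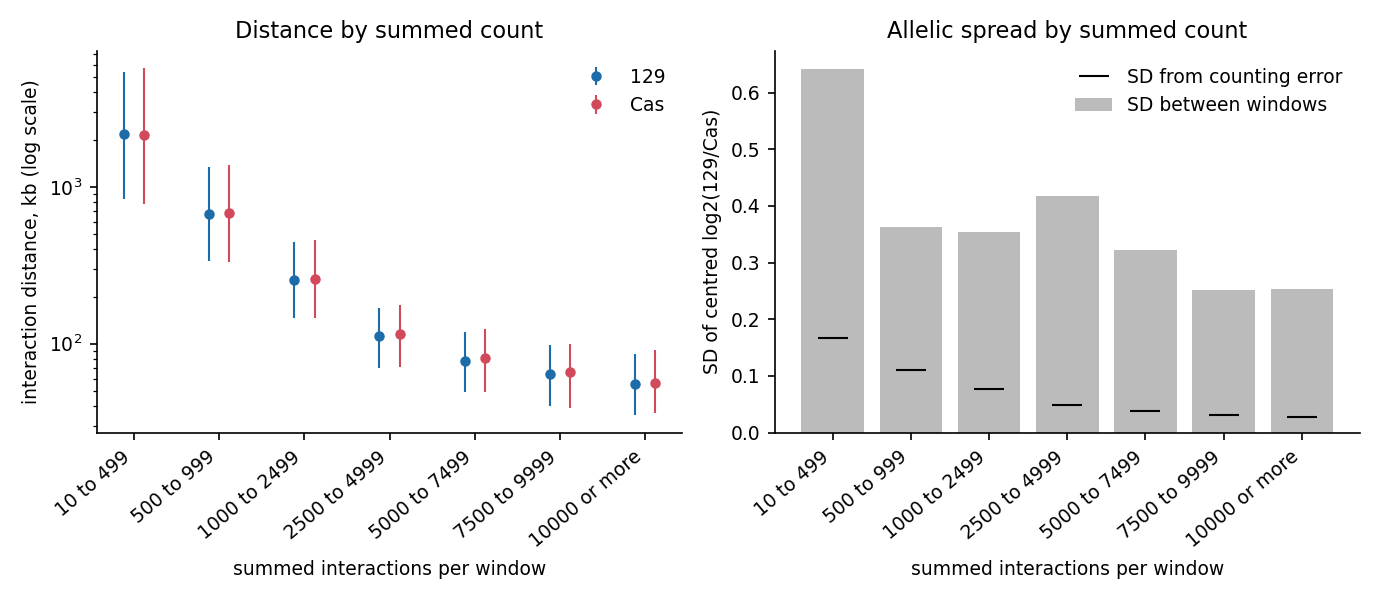
Left, interaction distance in kb on a log scale for 129 and Cas by summed count (points, medians; bars, quartiles); right, standard deviation between windows of the centred log2 ratio of 129 to Cas (bars) with the part expected from counting error (dashes). In hubs the median distances are 55 and 56 kb and the standard deviation is 0.25, against 0.03 from counting error.

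The last comparison asked whether hubs were shared by the alleles. Of the hub interactions, 4171384 belonged to 129 and 3079729 to Cas, so 129 took 57.53% (exact Clopper-Pearson 95% interval 57.49 to 57.56%), beside 57.57% over all windows. Log2 ratios of 129 to Cas were centred on the median of all windows, 0.45, and the hub median on that scale was -0.04, with quartiles of -0.14 and 0.10. When equally many windows of highest count (583) were taken on each allele separately, 432 windows, or 74.1% of each list, were on both lists. More interactions on 129 were found in 562 hubs and on Cas in 21. The median 129 share of a window was 57.2% in hubs, 56.7% from 7500 to under 10000 interactions and 57.8% over all windows tested. A lean to 129 is thus not particular to hubs, and the split was not counted in other windows.

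Hubs spread less between windows than the table as a whole. The standard deviation of the centred log2 ratio was 0.25 in hubs, 0.25 from 7500 to under 10000 interactions and 0.45 over all windows tested. Between these it did not fall steadily with the count. It was 0.35 from 1000 to under 2500 interactions, 0.42 from 2500 to under 5000 and 0.32 from 5000 to under 7500. Counting error alone gives 0.03 in a typical hub. A departure of 2-fold or more was seen in 5 hubs, 0.858%, against 3.32% of all windows tested. From 7500 to under 10000 interactions it was seen in 5 of 1200 windows, 0.417%, so hubs were not the most even windows by this measure.

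The exact binomial test against the share of all windows (two-sided, Benjamini-Hochberg adjusted over 43762 windows, threshold 0.05) called 449 of 583 hubs, 199 higher on 129 and 250 higher on Cas. Over all windows it called 51.4%, 27.1% higher on 129 and 24.3% higher on Cas. This test allows for counting error only, so its calls rose with the count, from 43.3% of windows with 10 to under 500 interactions to 69.8% from 7500 to under 10000 and 77.0% in hubs. The beta-binomial test, which adds the spread between windows as a single overdispersion of 0.0165, called 0 of 583 hubs after the same adjustment and 0.944% of all windows, 0.727% higher on 129 and 0.217% higher on Cas. Without adjustment, the beta-binomial p was under 0.05 in 9 hubs, 1.54%, beside 5.51% of all windows. Windows from 7500 to under 10000 interactions were like hubs in this, with 17 of 1200, or 1.42%, and 0 called after adjustment. With an overdispersion taken from windows of 1000 or more interactions it called 3 hubs, the first 3 described next, and 1.34% of all windows, so the share of hubs called was below that of all windows. The overdispersion of 0.0165 allows a standard deviation of 6.35 points in the 129 share. Observed standard deviations were 4.17 points in hubs and 9.77 points in windows of 10 to under 500 interactions. This test is thus wide for hubs, and its few calls there do not show that the alleles were even.

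The hub with the largest 129 share holds Cops9, Olfr12, Olfr1410 and Otos on chromosome 1 (92600001 to 92650000). With 9202 for 129 and 2636 for Cas, its share was 77.7% (76.97 to 78.48%), with a centred log2 ratio of 1.35 and a beta-binomial adjusted p of 0.062. A window of chromosome 8 without an annotated gene (95950001 to 96000000) had 7762 and 2352, a ratio of 1.27. The window of Ms4a2, the beta chain gene of the IgE receptor of mast cells, and Ms4a3 on chromosome 19 (11600001 to 11650000) had 9293 and 2910, a ratio of 1.22. The windows beside the first 2 were at 0.18 and 0.09, and at 0.09 and 0.10, so the shift towards 129 was narrow there, while the Ms4a2 window had neighbours at 0.24 and 0.67.

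Further hubs towards 129 had smaller shifts. They were Fsd2 on chromosome 7 (81500001 to 81550000; 8222 on 129 and 2986 on Cas), Tars, a threonyl-tRNA synthetase gene, on chromosome 15 (11350001 to 11400000; 7175 and 3067), and the Taar4 to Taar7b window on chromosome 10 (23950001 to 24000000; 14104 and 6060). The last alone among the 6 has a summed count above 20000, and both adjoining windows were also hubs, at 0.21 and 0.31.

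Towards Cas, the largest ratio was at Hikeshi, a nuclear import factor gene of the heat shock response, on chromosome 7 (89900001 to 89950000), where 129 had 4361 and Cas 6395, a 129 share of 40.5% (39.6 to 41.5%) and a centred log2 ratio of -1.01. Cgrrf1 and Gmfb on chromosome 14 (46800001 to 46850000) had 4638 and 6490, a ratio of -0.94. Neighbours of the Hikeshi window were at -0.33 and -0.63 and those of the Gmfb window at -0.59 and -0.33, also on the Cas side. Beside hubs that stood alone, this ratio had standard deviations of 0.31 and 0.33 in the windows on either side. Whether the shift extended beyond these hubs was not tested. Smaller ratios were at Olfr1366 and Zkscan8 on chromosome 13 (21500001 to 21550000; 5733 and 6722), Rmc1 on chromosome 18 (12150001 to 12200000; 5664 and 6596), Olfr231 and Olfr424 on chromosome 1 (174100001 to 174150000; 7522 and 8738) and Col6a4 on chromosome 9 (106050001 to 106100000; 4759 and 5422). The smallest beta-binomial adjusted p among hubs towards Cas was 0.37, at Hikeshi.

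The allelic level of hubs was also set beside that of their chromosome. On chromosome 10 the median centred ratio was 0.24 in 19 hubs and 0.24 in all windows, and on chromosome 14 it was -0.18 in 21 hubs and -0.12 in all windows. On chromosome 18, where 13 hubs had a median of 0.06, all windows had -0.08. Adjoining hubs had related ratios, with a Pearson r of 0.47 over 77 adjoining pairs, which may count the same interactions. Hubs with more interactions on an allele tended to the shorter distance on it (Pearson r -0.28 and Spearman rho -0.20 between the log2 ratios of count and distance over 583 hubs of the same libraries). In the Fsd2 window, for example, it was 17 kb for 129 and 34 kb for Cas, and in the Tars window 111 and 256 kb.

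**Figure D5:**
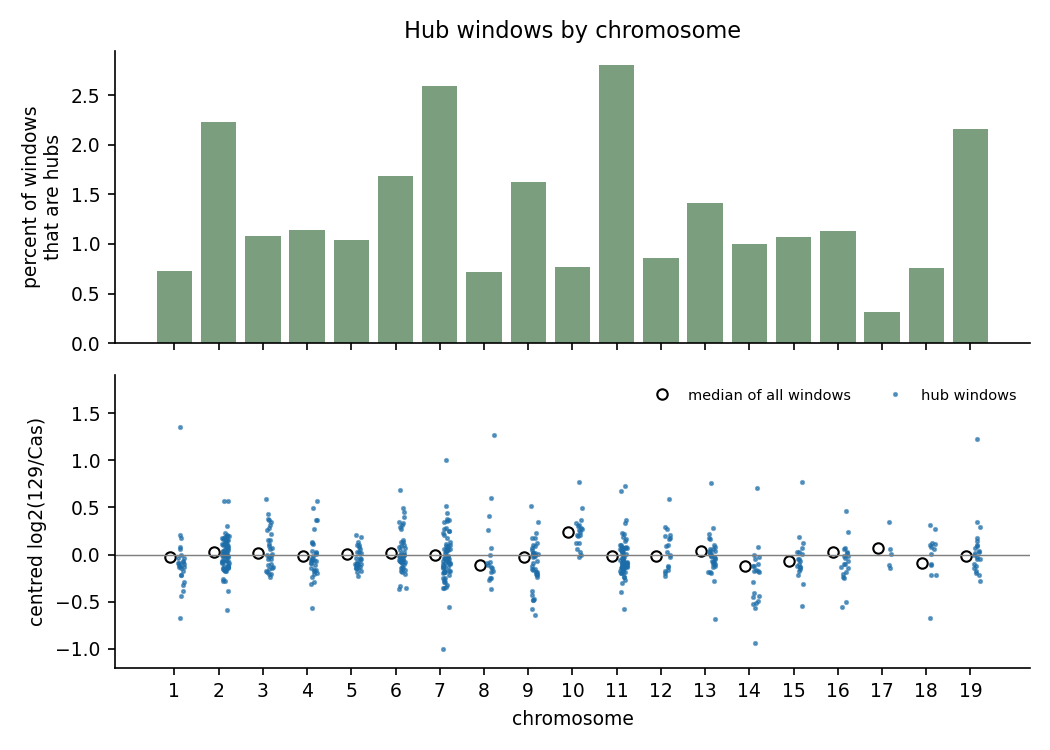
Top, percentage of the windows of each chromosome that are hubs; bottom, centred log2 ratio of 129 to Cas of each hub (points) and the median of all windows of that chromosome (open circles). Chromosome 11 has the largest share of hubs at 2.81% and chromosome 17 the smallest at 0.313%, and the hubs of chromosome 10 scatter around a median of 0.24.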

How the data were processed

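Promoter Capture Hi-C was run by the authors on 2 samples of F121-6 hybrid mouse ES cells, sequenced with paired reads of 100 bp per the labels' protocols. The submitters' processing notes name Bowtie2 and mm10. The sources used here do not give how alleles were assigned, reads filtered and samples merged. Per the file headers, the deposited table holds raw interaction counts and a distance, taken to be in bp, for each allele in windows of 50 kb. The labels list every column under each sample, so the columns were taken as pooled, and no count model across replicates could be fitted. Nothing in the labels says that the samples came from separate cultures. Window starts were raised by 1.

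The members, lists and tests were chosen with earlier results of these data known. Ratios are log2((129 + 1)/(Cas + 1)) minus the median of all windows with 10 or more interactions. Exact binomial and beta-binomial tests (two-sided by doubling the smaller tail, Benjamini-Hochberg) ran on all 43762 such windows and were tested on simulated data. Correlations carry no p.

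Of 20665 autosomal protein-coding genes in RefSeq (GRCm38.p6), 16457 were placed by their promoter entries and 2230 because the whole gene lies in a single window. The other 1978 were used by body overlap only, some of them on chromosome 18, where 0 genes had a promoter entry, and on chromosome 15, and 16467 of the placed genes start in a window of the table. Where genes were counted, as in the gene lists, a gene with several starts was given its window of highest count, which can raise the share in hubs. Where starts per window were counted, it entered every window that holds a start of it. Named windows are the 12 of highest count, the 4 on each side of the threshold, the longest runs (5, with a sixth added), the 6 per direction of largest ratio, the 5 of longest and shortest distance, the 4 per direction of largest distance ratio, up to 5 without a coding start, and up to 3 genes per list; other named items were chosen after their values were seen. Genes with only a model or clone number stayed unnamed, and some named windows are not reported here. No HindIII fragments or baits were mapped, because no genome was used here. Tests were run in scipy 1.17.1 under Python 3.11.15, tables were handled with pandas 2.3.3 and numpy 2.4.6, and figures were drawn with matplotlib 3.10.9.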

Additional observations from a re-analysis of the deposited data

How the results depend on the processing

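Of 34 alternative settings, 15 left a value within its interval or a count within 1.5 times, and the other 19 moved it. The number of hubs follows the threshold, with 1783 windows at 7500, 70 at 15000, and 1034 or 306 where 2 times the 129 or 2 times the Cas count had to reach 10000. The 129 share of hubs was 57.2% as the median of window shares, 57.1% at a threshold of 7500 and 57.9% at 15000, and leaving out each chromosome in turn gave 57.4 to 57.7%, the lowest without chromosome 10. Binomial calls fell from 449 to 0 under the beta-binomial test, which with the overdispersion of windows of 1000 or more interactions called 3 hubs and 1.34% of all windows. Median distances were 40 kb on both alleles at 15000, and 62 kb on Cas at 7500. The share of hubs with an adjoining hub was 31.4% with a gap of 1 window allowed and 27.3% at 7500. The share with a coding gene was 96.2% by body overlap, and the share with the start of any annotated gene 94.7%. Settings chosen after seeing the data changed no call. No paired analysis was possible because the table holds 1 pooled column per allele and measure, and no replicate could be left out. Neither depth nor mapping loss on Cas could be separated from an allelic difference.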
